A study of Homo sapiens with 30 samples.

Results

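U87 cells kept in interferon gamma (IFN-γ) for 28 days without a break were compared with U87 cells that had received none. U87 is a human glioblastoma line grown as an adherent culture. The comparison took the 3 libraries of the continuous exposure (D28) and the 3 Untreated libraries, 6 of the 30 RNA-seq libraries of the series, and the genes whose mean over those 6 was 0.5 TPM or more, which were 22025 of the 61471 rows of the U87 table. TPM is an expression level scaled for transcript length and for the total of the library. All cultures were grown in serum-containing medium, and IFN-γ and medium were renewed every other day. For the dose of human IFN-γ the labels give 1 µg/mL in 1 field and 1 µL/mL in another, and the methods of the study give a lower dose than the former, and the labels place the Untreated cells at day 3 whereas the methods place them at the start. Untreated cells were thus not kept in culture for 28 days alongside the D28 cells, and time in culture and IFN-γ cannot be told apart in this comparison. The replicates were cultures started and treated separately. The study did not check the identity of the line itself. Other U87 groups stand beside the comparison where they bear on a gene: 3 days of IFN-γ (D3, 2 libraries), 14 days (D14, 2 libraries) and 14 days of IFN-γ followed by withdrawal to day 28 (D28WO, 3 libraries).

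The libraries labelled D14 and D28WO went against their labels in genes of the IFN-γ response. In the libraries labelled D14, which were in IFN-γ by their label, IDO1 was listed at 0 and IRF1 was at 134 and 109.8 TPM, near the Untreated mean of 133 TPM. In the libraries labelled D28WO, which had been without IFN-γ since day 14 by theirs, IDO1 was at 135, 137 and 135 TPM and IRF1 at 527, 545 and 457 TPM, beside a D28 mean of 479.7 TPM. Whether these labels are right was not tested. Differences from either group are given between libraries as labelled and are not read as a course over time. Both groups enter the comparison of D28 with Untreated through the shared spread alone. With only the D28 and Untreated libraries in the fit, 1144 genes were called higher and 99 lower.

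IFN-γ is a cytokine made mainly by T cells and natural killer cells. It binds a receptor of the chains IFNGR1 and IFNGR2, the kinases JAK1 and JAK2 are activated, and the signal reaches transcription factors that bind gamma-activated sites in promoters. Among the early targets is IRF1, itself a transcription factor, which like STAT2 and IRF9 acts through interferon-stimulated response elements. In tumor cells the pathway is known for raising antigen presentation and chemokines that draw T cells, and also for raising inhibitory molecules such as PD-L1 (CD274) and IDO1.

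Both kinds of promoter element were searched by their letters, TTCNNNGAA for the gamma-activated site, which reads the same on both strands, and GAAANNGAAA on either strand for the response element. The windows were RefSeq promoters (GRCh38.p14) from 250 bases before to 50 after the start, which the table held for 825 of the 1576 genes called higher, for 77 of the 142 called lower and for 13068 of all genes tested. GAAANNGAAA was present in 9.82% of the windows of genes called higher, 1.30% of those called lower and 3.01% of those of all genes tested. TTCNNNGAA was present in 10.7%, 14.3% and 6.69% of them. Over all 27305 promoters of the table the shares were 3.65% and 7.88%. A match of letters is a description and does not show that a factor binds there. Windows of HLA-DOB and KLHDC7B, which are also among the 12 largest rises, and of WARS1, RSAD2 and PSMB9 held neither element. The 250 bases before the start are printed for 5 genes chosen because they hold a match: BST2 and IFI27, which are among the 12 largest rises and hold both elements, IRF1, which holds a gamma-activated site, and GBP1 and CXCL10, which hold a response element. Capitals mark the matches, 5′ to 3′ on the strand of the gene, and matches that overlap run together in BST2 and IFI27.
BST2: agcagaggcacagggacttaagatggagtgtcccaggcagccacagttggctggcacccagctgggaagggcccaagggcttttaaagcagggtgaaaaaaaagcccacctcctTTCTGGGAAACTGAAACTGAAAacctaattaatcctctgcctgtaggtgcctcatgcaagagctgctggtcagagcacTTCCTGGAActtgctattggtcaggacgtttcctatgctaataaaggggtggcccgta
IFI27: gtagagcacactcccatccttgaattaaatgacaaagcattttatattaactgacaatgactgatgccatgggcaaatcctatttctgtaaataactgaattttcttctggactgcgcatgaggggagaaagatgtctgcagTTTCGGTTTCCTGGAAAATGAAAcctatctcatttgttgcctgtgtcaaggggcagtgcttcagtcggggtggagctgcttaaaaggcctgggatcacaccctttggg
IRF1: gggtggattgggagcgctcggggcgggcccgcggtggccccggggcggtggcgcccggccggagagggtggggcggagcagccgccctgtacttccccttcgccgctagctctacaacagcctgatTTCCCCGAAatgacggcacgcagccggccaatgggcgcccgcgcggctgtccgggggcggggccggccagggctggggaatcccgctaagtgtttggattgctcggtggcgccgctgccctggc
GBP1: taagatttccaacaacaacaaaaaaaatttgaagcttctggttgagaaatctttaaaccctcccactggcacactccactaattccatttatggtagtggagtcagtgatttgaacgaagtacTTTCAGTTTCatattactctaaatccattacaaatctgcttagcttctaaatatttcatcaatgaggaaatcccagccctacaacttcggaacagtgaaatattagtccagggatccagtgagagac
CXCL10: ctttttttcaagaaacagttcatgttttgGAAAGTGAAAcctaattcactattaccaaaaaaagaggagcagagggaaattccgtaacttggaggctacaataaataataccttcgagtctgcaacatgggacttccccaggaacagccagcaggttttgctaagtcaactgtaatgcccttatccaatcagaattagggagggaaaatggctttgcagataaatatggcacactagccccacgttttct
The windows are chr19:17405631-17405880 (minus strand), chr14:94110486-94110735 (plus strand), chr5:132490774-132491023 (minus strand), chr1:89065209-89065458 (minus strand) and chr4:76023498-76023747 (minus strand). In BST2 the gamma-activated sites begin 136 and 58 bases before the start and the response elements 130 and 124 bases before it. In IRF1 the site begins 124 bases before the start, in GBP1 the response element 127 and in CXCL10 221 bases before it.

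Values were compared as log2(TPM + 1) with limma, with all 13 U87 libraries that could be assigned to a group in 1 fit. A gene was called when it changed by more than 2-fold and its p, adjusted by Benjamini-Hochberg over all genes tested, was under 0.05. At D28, 1576 genes were called higher (7.16% of those tested) and 142 lower (0.645%). With the adjusted p alone, 4024 were higher (18.3%) and 1531 lower (6.95%), and these shares were 7.78% and 8.14% with quantile normalization and 12.2% and 13.1% with size factors. The libraries of the 2 groups did not overlap in 1514 of the genes called higher and 135 of those called lower, and of all genes tested 26.5% stood apart upward and 10.8% downward. The median log2 fold change of all genes tested was 0.19, and it was 0.042 with median-ratio size factors and -0.033 with quantile normalization. The split of the calls moved with it, to 1218 higher and 224 lower with size factors and 672 higher and 417 lower with quantile normalization. Of the genes called higher, 1218 were also called with size factors and 669 with quantile normalization, and of those called lower 142 and 139, and none was called in the opposite direction. Changes are therefore to be read against 0.19, and since a change on this scale understates that of a gene with low TPM, the values of the libraries are given too.

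**Figure D1:**
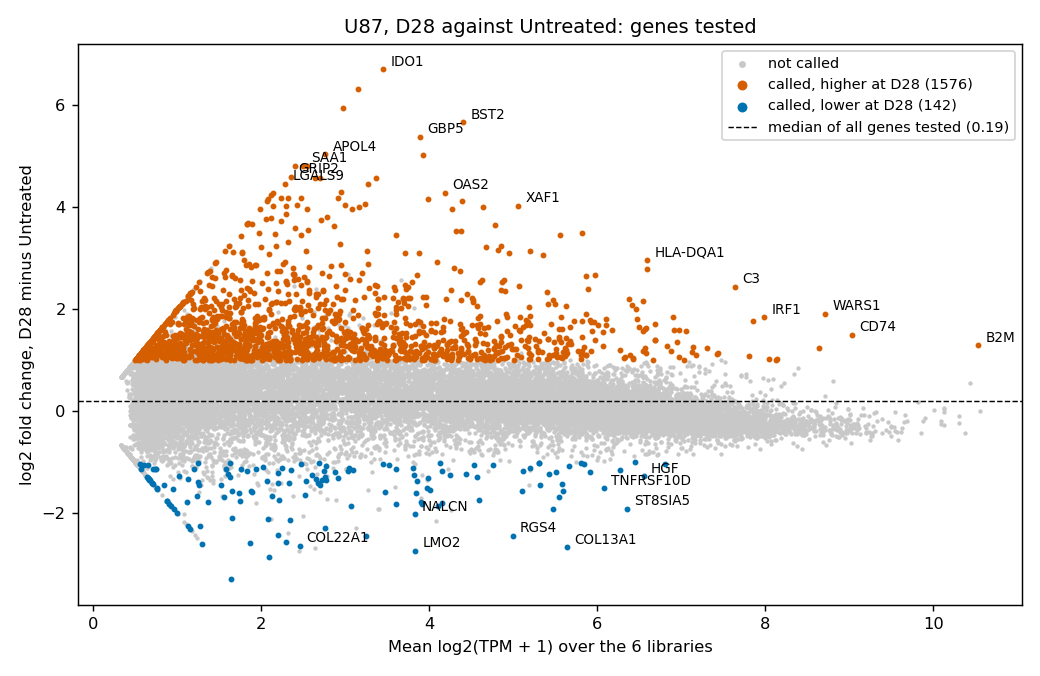
Each point is 1 of the 22025 genes tested, with its mean log2(TPM + 1) over the 6 libraries on the horizontal axis and its log2 fold change (D28 minus Untreated) on the vertical axis. The 1576 genes called higher reach 6.69 (IDO1), the 142 called lower lie under -1, and the dashed line marks the median of all genes at 0.19.

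The D28 libraries listed 26096 to 28438 genes above 0 TPM and the Untreated libraries 24223 to 25459. The trimmed mean over 405 olfactory receptor genes, which these cells should not express, was 0.0178 ± 0.00817 TPM (SD, n = 3) at D28 and 0.00573 ± 0.00188 TPM in Untreated (exact permutation test, two-sided, p = 0.1, the smallest that 3 against 3 libraries allow). Over 199 genes of other silent families it was 0.00477 TPM at D28 and 0.00175 TPM in Untreated (exact permutation test, two-sided, p = 0.7). With the mean over such silent genes subtracted in each library, 1569 genes were called higher and 143 lower. The value subtracted was 0.00324 to 0.0212 TPM in these 6 libraries. That is far under the limit of 0.5 TPM, so the subtraction could hardly change a call. Of the genes called higher, 576 had an Untreated mean under 1 TPM and 131 were listed at 0 in all 3 Untreated libraries. Untreated replicate 3 had a size factor of 0.812 against 0.948 to 1.07 in the other 12 libraries, and without it 1129 genes were called higher and 169 lower. In the 6 libraries 6.34% to 7.76% of the TPM fell on the top 100 genes. The highest value of a gene was 1463 to 1787 TPM in the Untreated libraries and 2000 to 2658 TPM at D28. How TPM was computed is not given, so levels are to be compared only within this data set. All 12 markers of a mesenchymal glioblastoma line were present, with VIM at 1307 and 1224 TPM in the group means. The 12 summed to 7649 to 8434 TPM in Untreated and 7226 to 7506 at D28. The 5 endothelial markers summed to 4.92 to 6.75 TPM in Untreated and 2.44 to 4.40 at D28. No member of either set was called. Of 7 T cell markers 1, CD3D, was listed at 0 in all 6 libraries and 2 had a mean of 1 TPM or more, and their sum was 2.22 to 5.81 TPM in Untreated and 3.55 to 5.19 at D28. The 5 B cell markers summed to 0.160 to 3.88 TPM in Untreated and 3.85 to 8.36 at D28, with PAX5 called higher (0.0125 to 1.21 TPM, not with quantile normalization), and their part in the results was not tested. Of 8 macrophage and microglia markers AIF1 and TYROBP were listed at 0 in all 6 libraries. CSF1R was present at 55.2 and 48.8 TPM, and the summed level of the 8 was 51.6 to 62.0 TPM in Untreated and 46.1 to 62.3 at D28. Of the neuronal markers, SNAP25 and GAD1 were present, and the 5 neuronal markers summed to 121 to 129.7 TPM in Untreated and 136 to 176 at D28, with no member called.

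The largest rise was that of IDO1, the enzyme that opens the breakdown of tryptophan to kynurenine. Its values were 0.239, 0 and 0 TPM in the Untreated libraries and 95.5, 107 and 130.4 TPM in the D28 libraries (log2 fold change 6.69 ± 0.14 (SE), limma, adjusted p = 7.23e-11). The Untreated libraries were at or near 0 and every D28 library lay far above them. BST2, or tetherin, which holds budding viruses at the cell surface, was at 1.901, 1.701 and 2.35 TPM in the Untreated libraries and 136, 144 and 169 TPM in the D28 libraries (log2 fold change 5.66 ± 0.11 (SE), limma, adjusted p = 4.39e-11; chromosome 19, 17402939 to 17405630). GBP5 and GBP4 are guanylate-binding proteins, GTPases that act on intracellular pathogens. GBP5 was at 1.85, 1.97 and 0.441 TPM in Untreated and 107, 80.3 and 99.2 TPM at D28 and GBP4 at 2.15, 0.531 and 0.972 TPM in Untreated and 51.6, 42.1 and 54.7 TPM at D28 (log2 fold changes 5.38 and 4.57). APOL4, of the apolipoprotein L family, was at 0.294, 0.212 and 0.0707 TPM in Untreated and 33.8, 35.3 and 45.2 TPM at D28 (log2 fold change 5.03 ± 0.24 (SE), limma, adjusted p = 8.14e-08). IFI27, a small mitochondrial protein of the interferon response, had 1.21, 3.601 and 0.8799 TPM in Untreated and 69.3, 95.5 and 95.4 TPM at D28, with the widest spread of the Untreated libraries among these genes. SAA1, an acute-phase protein, was at 0, 0 and 0.225 TPM in Untreated and 22.6, 32.1 and 33.5 TPM at D28. In every one of these genes the groups were apart, which the rule that named them required.

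GRIP2, a scaffold protein of glutamate receptors, was at 0.0796, 0 and 0.0445 TPM in the Untreated libraries and 19.1, 29.4 and 24.97 TPM in the D28 libraries (log2 fold change 4.59 ± 0.28 (SE), limma, adjusted p = 6.47e-07). HLA-DOB, a chain of the class II modulator HLA-DO, was at 0, 1.35 and 0 TPM in Untreated and 31.3, 25.9 and 34.8 TPM at D28, and 1 Untreated library held all of its Untreated signal. LGALS9 encodes galectin-9, a ligand of the checkpoint receptor TIM-3, and was at 0, 0 and 0.128 TPM in Untreated and 25.3, 23.7 and 17.4 TPM at D28 (log2 fold change 4.46 ± 0.32 (SE), limma, adjusted p = 1.86e-06). KLHDC7B, a kelch-domain protein, was at 0.81002, 1.02 and 0.436 TPM in Untreated and 30.9, 27.5 and 42.6 TPM at D28. OAS2, which makes oligoadenylates on sensing double-stranded RNA, was at 3.16, 3.75 and 2.57 TPM in Untreated and 78.01, 80.6 and 79.4 TPM at D28, and its D28 libraries were the closest together of the 12. The same genes stood at other levels in the other groups. IDO1 was at 81.3 and 85.9 TPM at D3, listed at 0 in both D14 libraries and at 135, 137 and 135 TPM in D28WO. GRIP2 and LGALS9 were higher at D28 (means 24.5 and 22.2 TPM) than in any D3 library (8.76 and 13.5 TPM for GRIP2 and 4.53 and 11.5 TPM for LGALS9), differences that did not pass the direct test (limma, adjusted p = 0.319 and 0.212).

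**Figure D2:**
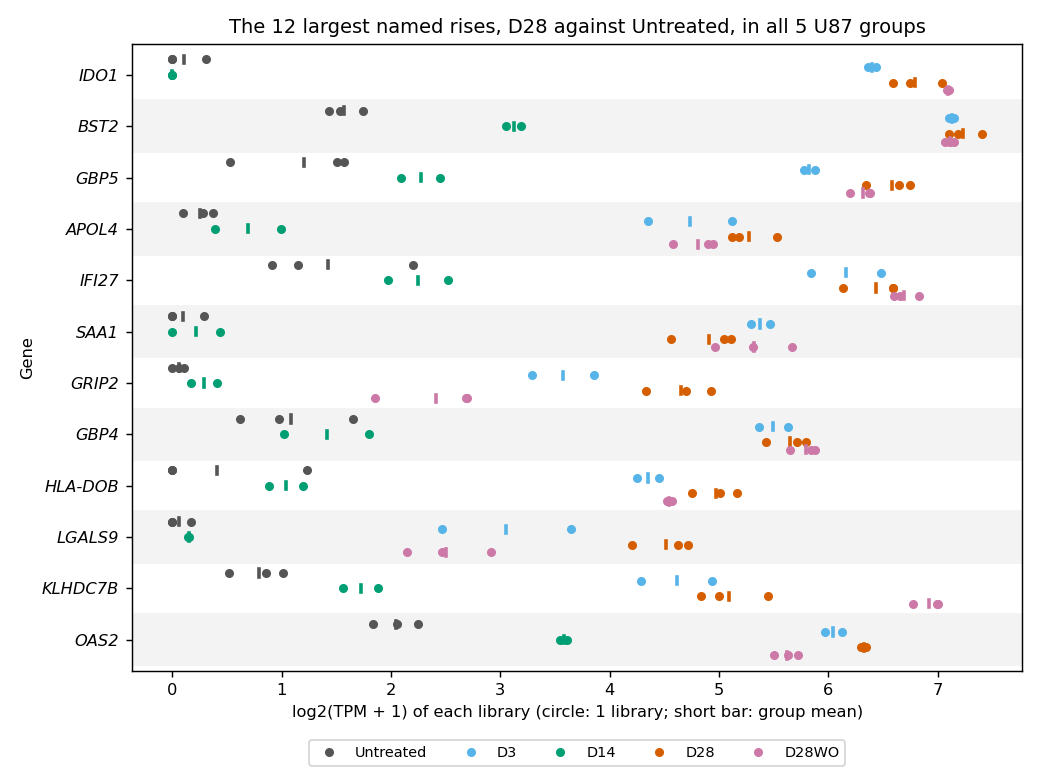
Each circle is 1 library, with log2(TPM + 1) on the horizontal axis, for the 12 largest named rises (rows) in the 5 U87 groups (colours), and a short bar marks the group mean. In all 12 genes the D28 libraries lie to the right of every Untreated and every D14 library. The rule that named the genes required this for Untreated. IDO1 stands at 95.5, 107 and 130.4 TPM at D28.

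Ranked by the gain in mean TPM, the rises were led by B2M. B2M, the light chain of class I molecules, went from 948 ± 82.03 TPM (SD, n = 3) to 2329 ± 329 TPM (log2 fold change 1.29 ± 0.11 (SE), limma, adjusted p = 6.50e-06; chromosome 15, 44711358 to 44718851). WARS1, the cytosolic tryptophanyl-tRNA synthetase, rose from 216 ± 11.2 to 811 ± 59.1 TPM (log2 fold change 1.90 ± 0.071 (SE), limma, adjusted p = 1.06e-08). CD74, the invariant chain of class II molecules, rose from 313 ± 42.8 to 888 ± 131 TPM, and C3, the central complement component, from 85.4 ± 18.8 to 465 ± 70.5 TPM. HLA-DPA1 and HLA-DQA1 went from 259.5 and 33.7 TPM to 613 and 271 TPM. IRF1 was at 136, 130.1 and 134 TPM in the Untreated libraries and 539, 457 and 443 TPM in the D28 libraries. The groups were apart in each of these genes, which the rule for the largest gains required.

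Of the receptor, kinase and STAT genes, 3 of 13 were called higher, against 7.16% of all genes. With the adjusted p alone 8 were higher, against 18.3%, or 6 with quantile normalization and 4 with size factors. JAK2 rose from 17.9 ± 4.25 to 40.5 ± 5.37 TPM (log2 fold change 1.15 ± 0.16 (SE), limma, adjusted p = 3.92e-04) and STAT2 from 41.99 to 103 TPM. The 2 receptor chains moved in opposite directions. IFNGR1, the ligand-binding chain, was at 41.7, 34.7 and 33.05 TPM in Untreated and 41.7, 50.9 and 53.3 TPM at D28 (log2 fold change 0.40 ± 0.13 (SE), limma, adjusted p = 0.0406). IFNGR2, which brings in JAK2, was at 61.99, 65.6 and 59.5 TPM in Untreated and 41.2, 41.7 and 48.1 TPM at D28 (log2 fold change -0.51 ± 0.11 (SE), limma, adjusted p = 0.00639). Of 8 IRF and BATF genes tested, 5 were called higher, namely IRF1, IRF5, IRF7, IRF9 and BATF2, and the calls of IRF5, IRF7, IRF9 and JAK2 were lost with quantile normalization, that of JAK2 also with size factors. BATF2, a basic leucine zipper factor, had the largest change of them, with 3.94, 5.13 and 3.21 TPM in Untreated and 92.3, 80.2 and 86.8 TPM at D28 (log2 fold change 4.12 ± 0.13 (SE), limma, adjusted p = 5.40e-09). IRF4 and IRF8, factors of lymphoid and myeloid cells, were under the limit of 0.5 TPM. None of 16 feedback regulators was called by limma, while 5 were higher and 1 lower with an adjusted p under 0.05, which became 2 and 3 with quantile normalization and 2 and 2 with size factors. SOCS1, the inhibitor of JAK kinases, was the largest at 19.8, 15.002 and 14.97 TPM in Untreated and 35.5, 32.4 and 30.4 TPM at D28 (log2 fold change 0.95 ± 0.15 (SE), limma, adjusted p = 8.79e-04). Their median was 0.083, beneath the 0.19 of all genes, and it was -0.10 with size factors.

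All 5 guanylate-binding proteins tested and all 5 apolipoprotein L genes tested were called higher, with medians of 2.78 and 3.06. GBP1 rose from 35.9 ± 4.19 to 251.2 ± 6.12 TPM, GBP2 from 43.7 ± 7.15 to 197 ± 23.9 TPM and GBP3 from 7.46 ± 0.965 to 42.9 ± 7.81 TPM. GBP6, GBP7 and APOL5 did not reach the limit of 0.5 TPM. APOL1, the trypanolytic serum factor, rose from 11.5 ± 2.09 to 108 ± 4.32 TPM (log2 fold change 3.14 ± 0.11 (SE), limma, adjusted p = 9.09e-09). The genes of both families lie side by side and are near in sequence, so the division of reads among them is uncertain.

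Among 17 class I genes, 6 were called higher and 14 were higher with the adjusted p alone. The heavy chains rose by unequal amounts. HLA-B went from 364 ± 39.6 to 547 ± 56.2 TPM and HLA-C from 250.4 ± 19.4 to 420.3 ± 69.2 TPM, with log2 fold changes of 0.59 and 0.73. HLA-F, a non-classical chain, was at 79.96, 58.2 and 51.1 TPM in Untreated and 232, 216 and 225 TPM at D28 (log2 fold change 1.84 ± 0.13 (SE), limma, adjusted p = 1.65e-06). TAP1, a chain of the peptide transporter, rose from 49.9 ± 5.08 to 159 ± 15.3 TPM and its partner TAP2 from 49.6 ± 3.08 to 90.2 ± 1.36 TPM (log2 fold changes 1.66 and 0.85). TAPBPL and NLRC5, an editor of class I peptides and the transactivator of class I genes, were also called, at 1.45 and 1.60. The chaperones CANX and PDIA3, which assist folding of many glycoproteins, were lower by the adjusted p, at -0.31 and -0.26, but neither was lower by the adjusted p with quantile normalization.

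Class II genes were already present without IFN-γ, with HLA-DRA at 195 TPM and the class II transactivator CIITA at 43.6 TPM. At D28, 9 of 16 were called higher and 14 passed with the adjusted p alone. HLA-DQA1 was at 30.4, 36.6 and 34.02 TPM in the Untreated libraries and 239, 258 and 318 TPM in the D28 libraries (log2 fold change 2.97 ± 0.11 (SE), limma, adjusted p = 9.98e-09). HLA-DOA was at 22.8, 23.5 and 6.995 TPM in Untreated and 234, 154 and 184 TPM at D28 (log2 fold change 3.50 ± 0.40 (SE), limma, adjusted p = 1.07e-04). CIITA rose from 43.6 ± 9.46 to 174 ± 0.702 TPM, HLA-DMB, which loads peptides, from 31.5 ± 3.44 to 111 ± 14.4 TPM and HLA-DRA from 195 ± 20.03 to 396 ± 44.97 TPM, a call that was lost in 5 of 17 alternatives, among them size factors and leaving out Untreated replicate 1 or 2 or D28 replicate 1 or 3. RFXANK and RFXAP, which bind class II promoters together with RFX5, stood at 0.23 and 0.32 and did not pass. HLA genes are near-identical paralogs, and each value may hold reads of a neighbour. Of 16 cathepsins and cystatins 2 were called higher, against 7.16% of all genes. By the adjusted p 5 were higher and 4 lower, against 18.3% and 6.95%, or 3 and 3 with quantile normalization and 3 and 5 with size factors. The lysosomal protease CTSS, which trims the invariant chain, rose from 53.2 ± 2.14 to 159.7 ± 8.696 TPM (log2 fold change 1.57 ± 0.068 (SE), limma, adjusted p = 4.30e-08), while CTSL, CTSK, CTSD and CTSV were lower by the adjusted p (log2 fold changes -0.30, -0.59, -0.28 and -0.63).

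Inducible and constitutive proteasome subunits moved apart. Of the 5 inducible subunits, all passed upward and 2 were called, PSMB9 with 78.9, 67.1 and 71.03 TPM in Untreated and 168, 162 and 201 TPM at D28 and PSMB10 with 103, 90.6 and 98.3 TPM in Untreated and 191, 194 and 250.1 TPM at D28, the latter not called with size factors or without D28 replicate 3. Of the 14 constitutive subunits none was called, and 8 were lower and none higher by the adjusted p. PSMB5, PSMB6 and PSMB7, the catalytic subunits that the inducible ones replace, were at -0.35, -0.42 and -0.37 (limma, adjusted p = 0.00562, 0.00237 and 0.00943). The median of the constitutive subunits was -0.31, and with quantile normalization it was -0.14, with 3 subunits lower and 2 higher. That of the inducible subunits was 0.77 and 0.80.

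Antiviral genes were described by family. Of the OAS family and RNase L, all 5 passed and 3 were called, with OAS1 going from 9.41 ± 3.11 to 59.2 ± 2.91 TPM. IFIT2, IFIT3, IFITM1, IFITM2, IFITM3 and IFIT1 were called among 8 IFIT and IFITM genes, and IFITM1, which bars viral entry, was at 4.53, 3.26 and 9.25 TPM in Untreated and 84.5, 91.7 and 125 TPM at D28 (log2 fold change 4.01 ± 0.29 (SE), limma, adjusted p = 2.39e-06). Of the genes listed with the ISG15 system 2 of 6 were called, the E1 enzyme UBA7 at 1.82 and HERC6 at 1.51, while ISG15 itself stood at 0.85. Of 16 antiviral effectors 10 were called. RSAD2 (viperin) was at 0.212, 0.236 and 0.04502 TPM in Untreated and 12.5, 14.996 and 18.2 TPM at D28, RTP4 at 0.899, 0 and 0.2304 TPM in Untreated and 19.6, 18.6 and 24.4 TPM at D28 and MX2 at 14.3, 9.501 and 10.2 TPM in Untreated and 83.4, 65.7 and 65.1 TPM at D28. MX1 rose from 3.52 to 10.3 TPM. Over 17 alternatives the call was lost in 5 each for IFIT1, IFITM2 and IFITM3 and in 6 each for MX1 and ZBP1. It was lost without Untreated replicate 1 or 2 for MX1 and without any of the 3 for ZBP1, without Untreated replicate 3 for IFIT1 and IFITM2 and without Untreated replicate 1 for IFITM3. Leaving out a D28 replicate ended it with replicate 1 for IFITM2, IFITM3 and MX1, with replicate 2 for MX1 and ZBP1 and with replicate 3 for IFIT1 and IFITM3. XAF1 and EPSTI1, of the group with IFI27, rose from 7.62 and 5.996 TPM to 135 and 70.4 TPM, whereas IFI44 was at 101 and 102 TPM (limma, adjusted p = 0.873). Of 13 sensors of nucleic acids 8 were called, among them IFIH1 (MDA5) at 2.14, TLR3 at 2.54 and DHX58 at 2.29. ZBP1, a sensor of Z-form nucleic acids, was listed at 0 in all Untreated libraries and stood at 2.08 TPM at D28. CGAS, the sensor of cytosolic DNA, did not reach the limit, at 0.0786 and 0.183 TPM.

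Secreted proteins formed the next group. Of 17 chemokines tested, 13 were called higher and none lower, with a median of 1.88. CXCL10, CXCL11, CCL5, CCL7 and CCL8 were listed at 0 in every Untreated library, so no fold is given, and the call of CCL7 was lost in 10 of 16 alternatives. At D28 CXCL10, a ligand of CXCR3 on T cells, was at 14.8, 15.3 and 21.4 TPM and CCL8, a monocyte chemokine, at 12.03, 12.6 and 10.4 TPM. The neutrophil chemokines rose from levels already present, CXCL2 from 40.9 ± 7.66 to 174 ± 12.5 TPM and CXCL8 from 90.7 ± 9.201 to 218 ± 8.83 TPM. CCL2 stood at 29.2, 25.9 and 21.1 TPM in Untreated and 34.5, 23.3 and 47.004 TPM at D28 and did not pass (limma, adjusted p = 0.171). Of 22 cytokines, 12 were called higher. IL6 was at 50.7, 63.04 and 47.8 TPM in the Untreated libraries and 170.0, 164 and 168 TPM in the D28 libraries (log2 fold change 1.63 ± 0.11 (SE), limma, adjusted p = 1.84e-06). IL18BP, which neutralizes interleukin-18, was at 3.44, 4.85 and 3.51 TPM in Untreated and 85.8, 62.98 and 76.9 TPM at D28, and IL32 at 4.78, 4.79 and 5.03 TPM in Untreated and 78.7, 52.04 and 71.99 TPM at D28. IL15 rose from 14.1 to 42.2 TPM and TNFSF13B (BAFF) from 36.3 to 115 TPM. TGFB1 was lower by the adjusted p (-0.25). Of 16 complement genes 10 were called higher, including C1R, C1S, C2, C3, CFB and the C1 inhibitor SERPING1, which was at 7.43, 9.02 and 4.53 TPM in Untreated and 91.6, 89.8 and 108 TPM at D28. CD59, which blocks the membrane attack complex, was lower, from 398 ± 53.8 to 259 ± 24.1 TPM (log2 fold change -0.62 ± 0.10 (SE), limma, adjusted p = 0.001). C4A and C4B are near-identical copies and their values of 1.83 and 2.89 cannot be separated with certainty.

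On the cell surface, 6 of 18 checkpoint and costimulatory ligands were called higher. CD274, or PD-L1, was at 28.7, 46.9 and 28.1 TPM in the Untreated libraries and 72.8, 66.4 and 61.7 TPM in the D28 libraries (log2 fold change 0.97 ± 0.16 (SE), limma, adjusted p = 0.00145), apart but just under the 2-fold limit. PDCD1LG2, or PD-L2, passed it, from 25.3 ± 3.07 to 68.9 ± 2.85 TPM (log2 fold change 1.42 ± 0.10 (SE), limma, adjusted p = 1.47e-06). TNFRSF14 (HVEM), the ligand of BTLA, was at 15.3, 21.2 and 17.3 TPM in Untreated and 86.7, 99.8 and 95.8 TPM at D28, and the butyrophilins BTN3A1, BTN3A2 and BTN3A3 were called at 1.74, 1.11 and 1.45, the second of them not with size factors. CD276 and PVR, 2 other ligands of immune receptors, were lower by the adjusted p (-0.34 and -0.34). Among 12 ligands of natural killer cell receptors only MICB was called, against 7.16% of all genes (17.6 to 51.2 TPM), and its paralog MICA stood at -0.22 (limma, adjusted p = 0.0868). Of 13 adhesion molecules ICAM1, VCAM1 and L1CAM were called. ICAM1, a ligand of leukocyte integrins, rose from 40.9 ± 7.03 to 125 ± 12.8 TPM, and L1CAM, a neural adhesion molecule, from 5.14 ± 2.88 to 35.7 ± 3.62 TPM (log2 fold change 2.67 ± 0.34 (SE), limma, adjusted p = 2.14e-04).

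Of 23 death receptors, caspases and pore formers tested, 2 were called higher and 1 lower, and 11 were higher and 2 lower by the adjusted p, against 18.3% and 6.95% of all genes. With size factors the latter numbers were 7 and 6, and with quantile normalization 7 and 2. TNFSF10 (TRAIL) was at 0.956, 1.07 and 0.4202 TPM in Untreated and 21.001, 22.2 and 26.4 TPM at D28 (log2 fold change 3.75 ± 0.29 (SE), limma, adjusted p = 3.18e-06) and CASP1, the inflammatory caspase, rose from 18.4 ± 3.37 to 57.4 ± 6.12 TPM. TNFRSF10D, a decoy receptor of TRAIL, fell from 113 ± 4.28 to 39.2 ± 5.09 TPM (log2 fold change -1.51 ± 0.11 (SE), limma, adjusted p = 2.04e-06). The signaling receptor TNFRSF10B was at 117 and 117 TPM. GSDMD, the pore former of pyroptosis, and the caspases CASP4, CASP8 and CASP10 were higher by the adjusted p but under 2-fold (0.90, 0.71, 0.38 and 0.83). Of 16 NF-κB subunits and feedback genes 14 passed upward and 5 were called, NFKBIZ, TNFAIP3, TRAF1, SOD2 and TNFAIP2, of which SOD2 and TNFAIP2 lost the call with size factors and TRAF1 and TNFAIP2 with quantile normalization. The call of TNFAIP2 was lost in 6 of 17 alternatives, among them leaving out Untreated replicate 2 or 3 or D28 replicate 3. NFKBIZ, an inhibitor-like co-factor, was at 28.02, 39.9 and 40.5 TPM in Untreated and 133, 135 and 114 TPM at D28.

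Fewer genes were called lower than higher. The median absolute log2 fold change was 1.37 in the genes called lower and 1.39 in those called higher. Both are taken over genes already beyond the 2-fold limit, so they do not compare the size of falls and rises. LMO2, a transcriptional adaptor known from blood and vessel development, was at 31.1, 40.4 and 36.2 TPM in the Untreated libraries and 6.47, 4.17 and 3.33 TPM in the D28 libraries (log2 fold change -2.74 ± 0.20 (SE), limma, adjusted p = 2.08e-06; chromosome 11, 33858576 to 33892076). COL13A1, a transmembrane collagen, was at 133, 121 and 119 TPM in the Untreated libraries and 23.3, 13.8 and 20.3 TPM in the D28 libraries (log2 fold change -2.66 ± 0.17 (SE), limma, adjusted p = 9.19e-07). COL22A1, a collagen of tissue junctions, was at 14.4, 14.7 and 9.56 TPM in Untreated and 1.76, 1.55 and 0.514 TPM at D28. PLXNA4, a semaphorin receptor, was at 25.2, 21.7 and 17.1 TPM in Untreated and 4.44, 2.51 and 2.48 TPM at D28, and RGS4, which damps G protein signals, at 75.8, 74.3 and 68.8 TPM in Untreated and 14.3, 15.6 and 9.04 TPM at D28. In each the lowest Untreated library stood above the highest D28 library, which the rule for the largest falls required. Of the membrane proteins of neurons in this group, the sodium leak channel NALCN was at 27.7, 28.99 and 25.9 TPM in Untreated and 9.24, 5.57 and 4.17 TPM at D28 (log2 fold change -2.02 ± 0.21 (SE), limma, adjusted p = 5.10e-05) and the GABA-A receptor subunit GABRG3 at 28.3, 41.4 and 27.4 TPM in Untreated and 7.71, 8.25 and 8.16 TPM at D28 (log2 fold change -1.86 ± 0.16 (SE), limma, adjusted p = 1.07e-05). CCDC178, a coiled-coil protein, RASD2, a small GTPase, and SCUBE3, a secreted protein with EGF domains, went from 9.65, 9.64 and 14.99 TPM to 1.05, 1.48 and 3.44 TPM. ST8SIA5, a sialyltransferase of gangliosides, lost the most TPM of the protein-coding genes called lower, from 158 ± 18.4 to 42.01 ± 10.8 (log2 fold change -1.90 ± 0.30 (SE), limma, adjusted p = 0.001), and PRSS3, a trypsin, went from 87.1 ± 23.4 to 22.2 ± 4.85 TPM. HGF, the ligand of MET, was at 135, 151 and 148 TPM in the Untreated libraries and 57.9, 62.2 and 58.1 TPM in the D28 libraries (log2 fold change -1.27 ± 0.10 (SE), limma, adjusted p = 3.93e-06). DPYSL3, of axon guidance, and SPRY2, an inhibitor of receptor tyrosine kinase signals, fell from 114 and 122 TPM to 51.1 and 60.5 TPM. The call of SPRY2 lay at the limit, with a log2 fold change of -1.001, and was lost in 5 of 17 alternatives, among them quantile normalization and leaving out Untreated replicate 3 or D28 replicate 1 or 3.

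**Figure D3:**
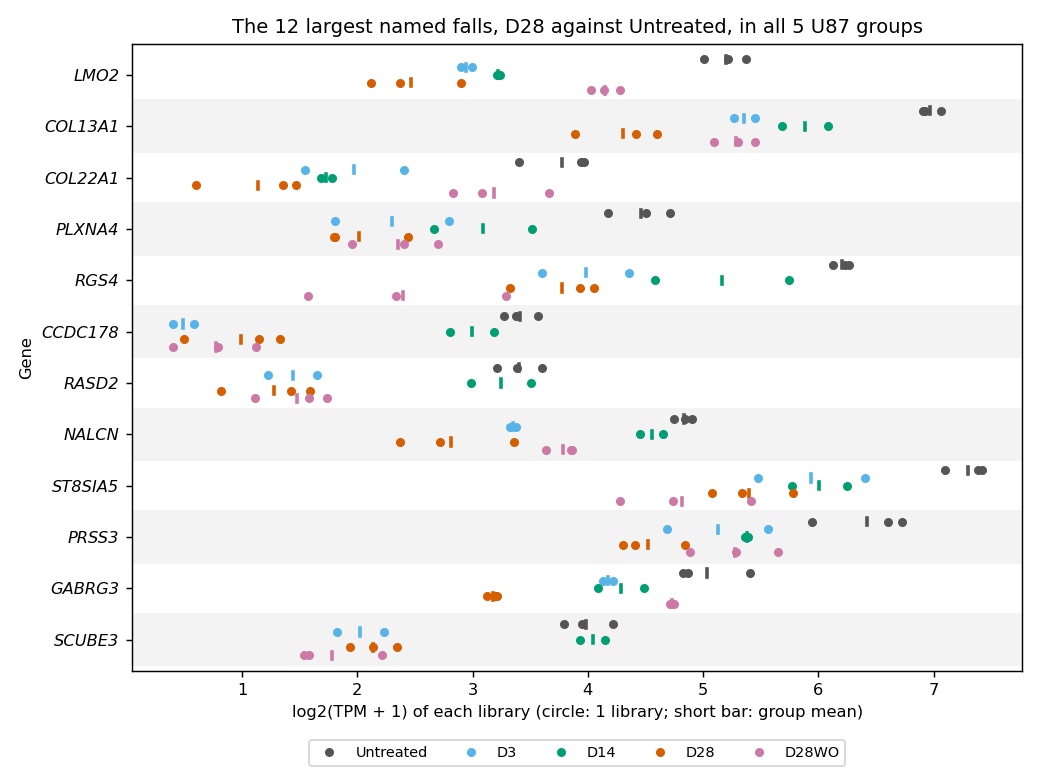
Each circle is 1 library, with log2(TPM + 1) on the horizontal axis, for the 12 largest named falls (rows) in the 5 U87 groups (colours), and a short bar marks the group mean. The D28 libraries lie to the left of all Untreated libraries in every row, which the rule that named the genes required. LMO2 is at 3.33 to 6.47 TPM against 31.1 to 40.4 TPM.

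Of 35 genes of the PI3K, AKT and mTOR pathway, which links growth factor receptors to cell growth, INPP4B was the only one called. INPP4B, a lipid phosphatase that opposes AKT signaling, went from 10.1 ± 1.16 to 3.88 ± 0.481 TPM (log2 fold change -1.19 ± 0.21 (SE), limma, adjusted p = 0.00215). By the adjusted p alone, 5 were higher and 3 lower, against 18.3% and 6.95% of all genes, and it was 4 and 4 with quantile normalization and 4 and 5 with size factors. The higher ones were the catalytic subunits PIK3CD and PIK3CA, the mTORC2 subunit RICTOR and the stress-responsive SESN2 and SESN3 (0.92, 0.33, 0.73, 0.88 and 0.89), and beside INPP4B the lower ones were the regulatory subunit PIK3R2 and RPS6 (-0.85 and -0.37). AKT1, AKT2 and MTOR stood at -0.13, -0.14 and 0.10 and did not pass. The median of the pathway was 0.10, less than that of all genes, and it was negative with size factors and with quantile normalization (-0.08 and -0.018). These values are of RNA and say nothing of phosphorylation. Among 20 receptor tyrosine kinases, FGFR2 and IGF1R were called higher, against 7.16% of all genes, and 4 were higher and 2 lower by the adjusted p, against 18.3% and 6.95%. FGFR2 was at 0, 0.112 and 0 TPM in Untreated and 14.1, 8.44 and 15.3 TPM at D28 (log2 fold change 3.68 ± 0.27 (SE), limma, adjusted p = 2.38e-06) and IGF1R, the receptor of insulin-like growth factor 1, at 8.85, 8.48 and 11.04 TPM in Untreated and 35.9, 27.7 and 26.9 TPM at D28 (log2 fold change 1.57 ± 0.20 (SE), limma, adjusted p = 2.45e-04). EGFR was higher by the adjusted p (0.44), and EPHA2 and AXL were lower (-0.75 and -0.26).

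Among genes of the extracellular matrix, beside COL13A1 and COL22A1, COL5A3 was called, from 1.13 to 6.34 TPM, and the other 22 of 25 collagen chains tested were not called. Of 25 metalloproteases and inhibitors, MMP3, MMP7, MMP9 and MMP10 were called higher, against 7.16% of all genes, and 7 were higher and 6 lower by the adjusted p, or 4 and 7 with quantile normalization and 5 and 7 with size factors. MMP3, the most abundant of them, was at 79.9, 72.4 and 79.2 TPM in Untreated and 173, 184 and 172 TPM at D28 (log2 fold change 1.18 ± 0.072 (SE), limma, adjusted p = 5.68e-07). MMP7 and MMP10 lost the call with quantile normalization and MMP10 with size factors and without Untreated replicate 2 or D28 replicate 3. MMP14, which anchors proteolysis at the membrane, and the inhibitors TIMP1, TIMP2 and TIMP3 were lower by the adjusted p (-0.64, -0.41, -0.63 and -0.29). ITGA1, a collagen receptor chain, was the only one of 25 integrin and laminin genes called (18.7 to 42.7 TPM, not with quantile normalization), and by the adjusted p 3 were higher and 8 lower, against 18.3% and 6.95% of all genes, with ITGA5, ITGB1 and ITGB5 among the lower ones. With quantile normalization it was 3 and 8, and with size factors 2 and 10.

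Of 29 genes of the mesenchymal state of glioblastoma only TWIST2 was called, against 7.16% of all genes, from 2.995 to 9.45 TPM and not with quantile normalization, while CHI3L1 reached a log2 fold change of 1.000 just short of the limit (122, 132 and 119 TPM in Untreated and 249.6, 256 and 243 TPM at D28). By the adjusted p 5 were higher and 4 lower, or 9 and 4 with quantile normalization and 4 and 8 with size factors. VIM, FN1 and ZEB1 stood at -0.091, 0.064 and -0.045. Of 13 neural stem and glial genes that reached 0.5 TPM among 25 listed, GFAP and S100B, markers of astrocytes, were called, with GFAP at 5.296, 6.899 and 2.33 TPM in Untreated and 19.1, 15.5 and 7.898 TPM at D28 (log2 fold change 1.38 ± 0.37 (SE), limma, adjusted p = 0.0188). GFAP and S100B were not higher by the adjusted p with quantile normalization, and over the 17 alternatives the call was lost in 5 for GFAP and in 11 for S100B. The list's median of 0.25 turned to -0.22 under it. In the stress response, ATF3, CHAC1 and TRIB3, targets of the factor ATF4, were called higher, with ATF3 at 35.1, 28.1 and 25.1 TPM in Untreated and 95.4, 123 and 119.8 TPM at D28 (log2 fold change 1.91 ± 0.13 (SE), limma, adjusted p = 1.03e-06). HSPA5 and HSP90B1, chaperones of the endoplasmic reticulum, were lower by the adjusted p (-0.40 and -0.32), but not with quantile normalization. Of 22 genes of the unfolded protein and ATF4 responses 3 were called higher, against 7.16% of all genes. By the adjusted p 11 were higher and 2 lower, against 18.3% and 6.95%. It was 10 and 0 with quantile normalization and 7 and 3 with size factors. Of 21 AP-1 and early response factors 3 were called higher, against 7.16% of all genes. By the adjusted p 5 were higher and 1 lower, against 18.3% and 6.95%. Their median was 0.17, under the 0.19 of all genes. Among them FOSB and EGR2 rose from 17.2 and 27.8 TPM to 69.9 and 75.9 TPM. MT1G was the only metallothionein called, from 0.739 to 12.97 TPM, while MT2A stood at 907 and 695 TPM.

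Lists of growth and metabolism were described by the same rules. Of 85 cytosolic ribosomal protein genes tested, 72 were lower by the adjusted p and none was called, with a median of -0.34 (6.95% of all genes tested were lower by this rule, 8.14% with quantile normalization and 13.1% with size factors). With quantile normalization the number was 12 and the median -0.13, and with size factors 77 and -0.53. For 75 nuclear genes of the respiratory chain 41 were lower, or 18 with quantile normalization and 56 with size factors, at a median of -0.28. The 12 mitochondrially encoded genes tested did not pass by limma, and none had an unadjusted p under 0.05. Among 26 mitotic genes 10 were lower and none higher, or 9 with quantile normalization and 20 with size factors, with a median of -0.23. Cyclin B1 (CCNB1) went from 313 ± 30.5 to 235 ± 29.3 TPM (log2 fold change -0.41 ± 0.10 (SE), limma, adjusted p = 0.0111), UBE2C, which drives mitotic exit, from 246 ± 28.3 to 177 ± 18.4 TPM, and MKI67 stood at 74.7 and 82.3 TPM. Of 28 replication genes 4 were lower, MCM7, CDC6, RFC2 and RFC5, or 1 with quantile normalization and 13 with size factors. Among 19 genes of G1 control, CCND2 and E2F2 were called higher, against 7.16% of all genes. They went from 0.257 and 8.67 TPM to 2.75 and 18.8 TPM, with the call of E2F2 lost in 11 of 17 alternatives. By the adjusted p 3 were higher and 1 lower, against 18.3% and 6.95%, or 1 and 1 with quantile normalization and 1 and 3 with size factors. CDK6 was higher and CDK4 lower by the adjusted p (0.62 and -0.40), and CDKN1A was at 178 and 162 TPM. Of 28 genes of glycolysis and hypoxia 1 was higher and 2 lower by the adjusted p, against 18.3% and 6.95% of all genes, or 2 and 1 with quantile normalization and 0 and 7 with size factors.

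**Figure D4:**
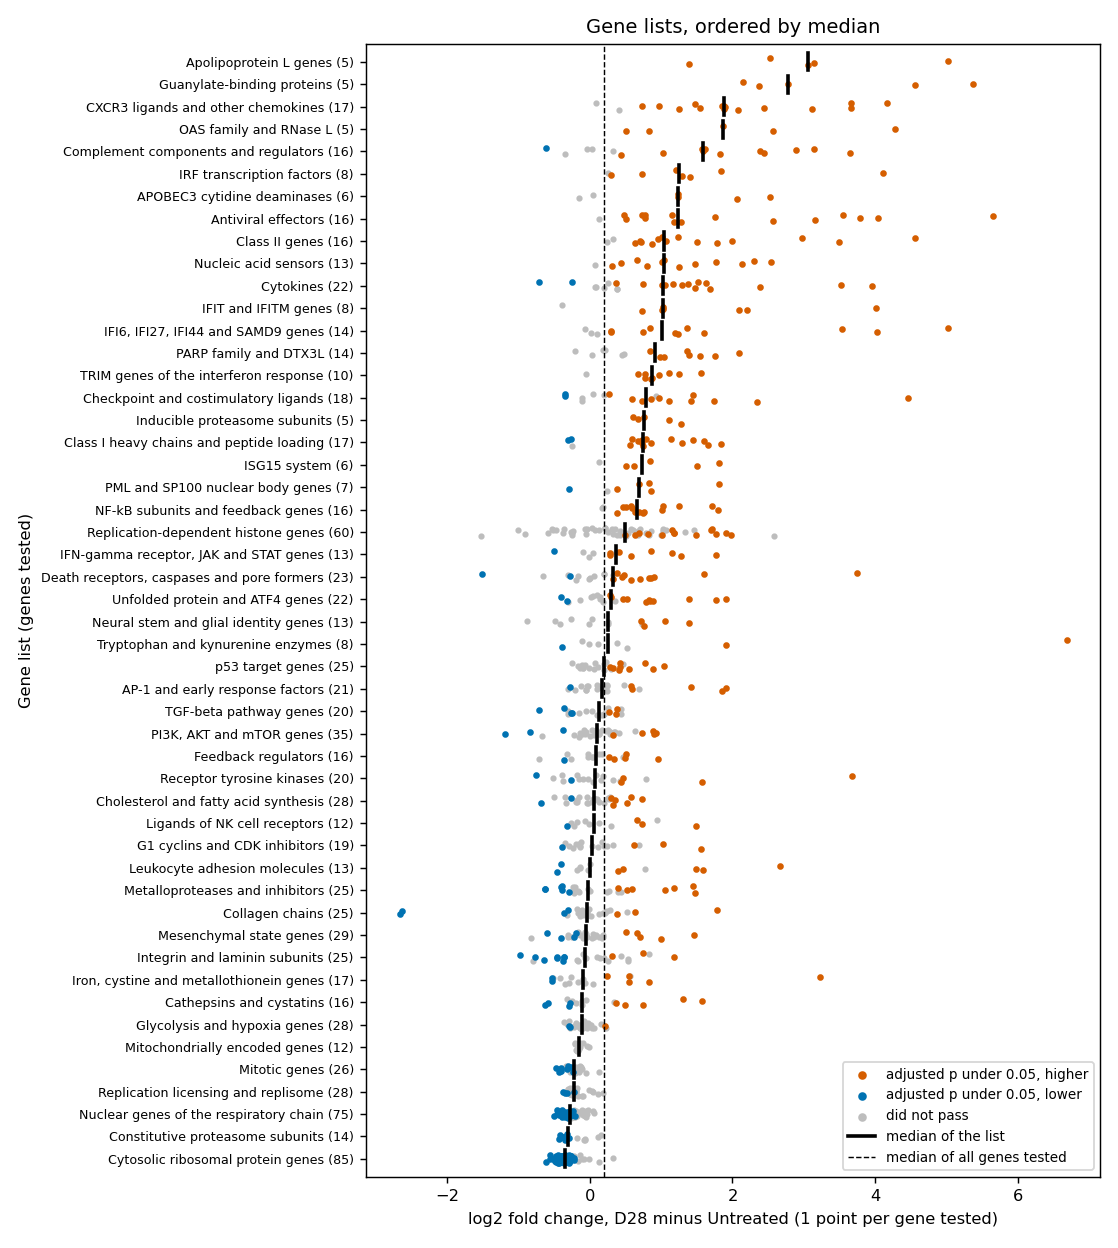
Each point is 1 tested gene of a list (rows, with the number tested), at its log2 fold change of D28 minus Untreated, coloured where the adjusted p is under 0.05, and short black bars mark the list medians. Medians run from 3.06 for the apolipoprotein L genes to -0.34 for the cytosolic ribosomal protein genes, against 0.19 for all genes tested (dashed line).

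To set 28 days of exposure against 3 days, D28 was compared with D3 directly in the same fit. Only 4 genes were called, 2 higher and 2 lower (0.00908% of the genes tested in each direction). The count was 22 with quantile normalization, 13 with size factors, 30 with no filter on low values and 19 with the filter over all 13 libraries. With the adjusted p alone there were 4 in each direction (0.0182%), whereas 1848 had an unadjusted p under 0.05 (8.39%). The median log2 fold change of all genes was 0.0024. Correlations of D28 with D3 libraries (0.958 to 0.964 over 6 pairs) were as high as those among D28 libraries (0.956 to 0.962 over 3 pairs), and those with Untreated libraries were 0.939 to 0.952 over 9 pairs. SOX18, a transcription factor of vessel development, was at 0.596 and 1.33 TPM at D3 and 0, 0 and 0.0889 TPM in Untreated and 8.3997, 12.9 and 9.36 TPM at D28 (log2 fold change of D28 minus D3 2.52 ± 0.30 (SE), limma, adjusted p = 0.0254). CX3CL1, or fractalkine, a membrane-bound chemokine, was at 0.707 and 1.63 TPM at D3 and 0.0913, 0.305 and 0.0937 TPM in Untreated and 7.89, 8.37 and 11.1 TPM at D28 (2.24 ± 0.29, limma, adjusted p = 0.0254). Both were thus higher at D28 than in every library of the other 4 groups. CXCL5, a neutrophil chemokine, was at 45.02 and 31.03 TPM at D3 and 10.8 ± 2.04 TPM (SD, n = 3) at D28, still above 2.197 ± 0.421 TPM in Untreated (-1.71 ± 0.21, limma, adjusted p = 0.0254). INHBA, the activin A subunit, was at 11.2 and 13.3 TPM at D3 and 3.897 ± 0.403 TPM at D28, under the 7.02 ± 0.605 TPM of Untreated (-1.44 ± 0.20, limma, adjusted p = 0.0473). The remaining 4 of the 8, all under 2-fold, were IL1B and MMP3, lower at D28 than at D3 (-0.78 and -0.63), and FOS and ABCC2, higher (0.80 and 0.98). With only the 2 groups in the fit no gene was called (limma, 1549 genes at an unadjusted p under 0.05, lowest adjusted p 0.156), and D3 had 2 libraries. Leaving out D28 replicate 3 also gave 0 (limma, 1998 genes at an unadjusted p under 0.05), and leaving out D3 replicate 3, D28 replicate 1 or D28 replicate 2 gave 9, 10 and 9.

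**Figure D5:**
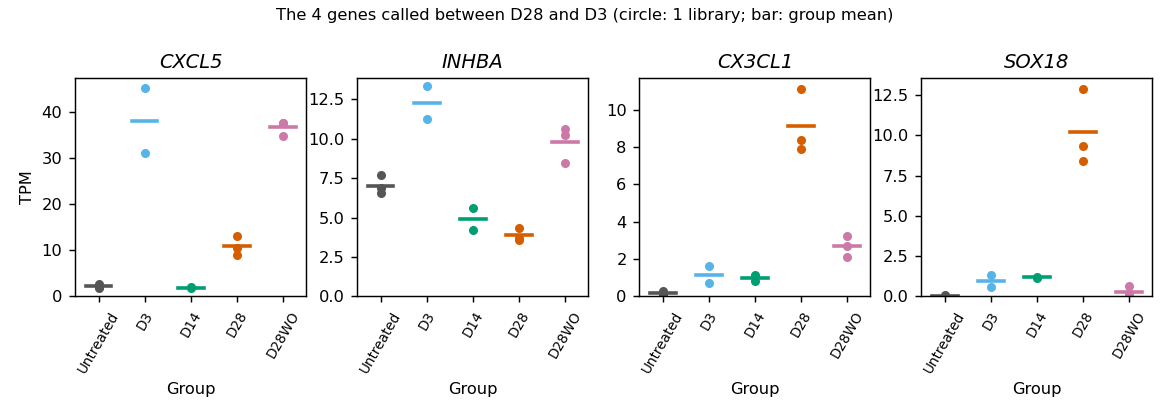
TPM (vertical axis, from 0) of the 4 genes called between D28 and D3 in each library (circles) of the 5 U87 groups (horizontal axis), with bars for group means. CX3CL1 and SOX18 are highest at D28, at 9.13 and 10.2 TPM in the mean, while the means of CXCL5 and INHBA are highest at D3, where 1 library of CXCL5 lies under all D28WO libraries.

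Against the libraries labelled D14, 415 genes were higher at D28 (1.88% of those tested) and 62 lower (0.281%), with D14 at 2 libraries. In all 477 were called, and 234 with only the 2 groups in the fit. The comparison shares the D28 libraries with that against Untreated, so the values of single genes are given side by side. IRF1 was at 134 and 109.8 TPM at D14, near the Untreated values (log2 fold change of D28 minus D14 1.97). LMO2 was at 8.25 and 8.41 TPM and COL13A1 at 50.5 and 66.7 TPM in the same libraries, under all Untreated libraries. HGF and SCUBE3 were at 129 and 127 and 14.3 and 16.8 TPM there and lower at D28 (-1.10 and -1.90, limma, adjusted p = 8.76e-05 and 0.00123).

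Replicates of D28 were spread slightly wider than those of Untreated, at a mean distance between libraries of 102 and 96.8 over the genes tested on the log2 scale, and no test was made of 3 libraries against 3. For the libraries labelled D28WO further values are given with no comparison. IDO1 was at 135, 137 and 135 TPM and BST2 at 138, 141 and 133 TPM, whereas GRIP2 was at 2.61, 5.44 and 5.47 TPM, LGALS9 at 4.52, 6.52 and 3.42 TPM and GABRG3 at 25.8, 25.3 and 25.4 TPM.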

How the data were processed

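RNA-seq of U87 cells was taken as TPM, which the authors deposited as 1 table for the line. According to the methods, reads were trimmed with Trim Galore after FastQC, then aligned to GRCh38 (STAR) and assigned to genes (featureCounts), from paired-end libraries. How the authors computed TPM is not given in the sources used here. TPM keeps no sequencing depth, so no limit can be set for a gene listed at 0. Columns were matched to samples by name. In the table for U87, a name that occurs on 2 columns could not be given to a sample, and both columns were left out of every step, which leaves 13 libraries. The U251 table was not used here.

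Genes with 0.5 TPM or more in the mean of the 6 libraries of D28 and Untreated were kept. Values were fitted as log2(TPM + 1) with limma 3.58.1 in R 4.3.3, with a mean-variance trend and all 5 groups in the fit, so that D3 and D14 share the spread of the others. The authors used edgeR for filtering and limma-voom on counts, with the same limits for a call. Contrasts were D28 against Untreated, D3 and D14. The fit was first tested on simulated data. Named genes were, among protein-coding genes called with groups apart, the 12 largest rises and falls, the 8 largest gains and losses in TPM, and up to 6 each way against D3, then members of 47 lists by hand and 5 by symbol rule, taking called members first. A few genes that these rules name are counted but not reported here. The comparison, the lists and the marker genes were chosen with earlier results of these data known. Lists are described by counts and medians, with no set test. Coordinates are from GENCODE (GRCh38), and biotypes and promoters from RefSeq. Reads are not stated to be counted by strand, so overlapping antisense genes cannot be told apart. Alternatives were a pseudocount of 0.1, no filter, a filter at 1 TPM or over all 13 libraries, quantile normalization, median-ratio size factors, 2 groups only, a replicate block, array weights, the adjusted p alone, background subtraction and leaving out each replicate. Python 3.11.15 with matplotlib 3.10.9 drew the figures.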

Additional observations from a re-analysis of the deposited data

Results flagged for a closer look

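The change from Untreated differed between D28 and D3 by more than 2-fold in 4 of the 8 genes that passed the direct test. It was larger at D28 by 2.52 on the log2 scale for SOX18 and by 2.24 for CX3CL1. For CXCL5 the value of D28 minus D3 was -1.71 and for INHBA -1.44. Adjusted p-values (limma, Benjamini-Hochberg) were 0.0254, 0.0254, 0.0254 and 0.0473. The D28 and D3 libraries did not overlap in any of the 4, which the rule for genes named against D3 required. The share of all genes apart in this way was not counted, so this adds nothing to the test. Over the 15 alternatives the sign of all 4 held, and the call held in 10 for SOX18, CX3CL1 and CXCL5 and in 6 for INHBA, with adjusted p from 0.00537 to 0.475. In the libraries labelled D28WO SOX18 was at 0.631, 0.137 and 0.1202 TPM, CX3CL1 at 2.13, 3.25 and 2.68 TPM, CXCL5 at 37.6, 37.6 and 34.6 TPM and INHBA at 8.49, 10.2 and 10.6 TPM. No group had the 4 libraries that a check for an outlying library needs.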

How the results depend on the processing

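Against Untreated, 1718 genes were called. The count was 1089 with quantile normalization, 672 higher and 417 lower, and 5555 with the adjusted p alone, 4024 higher and 1531 lower. Median-ratio size factors gave 224 lower. The remaining alternatives stayed within 1.5 times of each count. Leaving out 1 replicate gave 1298 to 1872 genes in all, 1129 to 1741 higher and 121 to 169 lower, with the lowest number of higher genes without Untreated replicate 3. Against D3, where 4 genes were called, the count was 30 with no filter on low values, 19 with the filter over all 13 libraries, 22 with quantile normalization, 13 with size factors, 8 with the adjusted p alone and 0 with only the 2 groups in the fit (limma, 1549 at an unadjusted p under 0.05), and leaving out 1 replicate gave 0 to 10. Against D14, where 477 were called, it was 234 with only the 2 groups and 936 with the adjusted p alone, and 304 to 467 when 1 replicate was left out, the lowest without either D14 replicate. The causes were not tested. Of 50 list medians 11 changed sign with quantile normalization, 8 with size factors and 0 to 4 under each of the others. The only one of them over 0.25 in size, that of the neural stem and glial genes, went from 0.25 to -0.22 with quantile normalization and to -0.0232 without D28 replicate 3, and leaving out each replicate gave -0.0232 to 0.266. Of 235 genes that the text or the rule names, none changed sign with an adjusted p under 0.05, and 23 lost the call with quantile normalization, 15 with size factors and 0 with background subtraction. The background subtracted was at most 0.0369 TPM, too little to change most calls.

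Replicate numbers are shared between the groups in the labels. Deviations from the group means of Untreated and D28 libraries with the same number correlated at -0.010, 0.013 and 0.048 over genes, all under 0.1, so the numbers were not taken to pair the samples. Untreated replicates 2 and 1 correlated most with D28 replicates 1 and 3 at 0.039 and 0.0078. With the replicate block 1678 genes were called against Untreated (1542 higher, 136 lower), 377 against D14 and 0 against D3 (limma, 1731 at an unadjusted p under 0.05, lowest adjusted p 0.0537).

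TPM gives no depth, so whether a gene listed at 0 was missed for lack of reads is unknown. D3 and D14 rest on 2 libraries each, and their comparisons borrow the spread of the other groups.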

Other observations

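Further gene families known from the interferon response were counted in the same way. Of 14 genes of the PARP family, counted with DTX3L, the partner of PARP9, 6 were called higher, PARP8, PARP9, PARP10, PARP12, PARP14 and DTX3L, and PARP14 went from 20.9 ± 1.25 to 92.5 ± 5.09 TPM (SD, n = 3; log2 fold change 2.09 ± 0.079 (SE), limma, adjusted p = 1.06e-08). The call of PARP8 was lost in 5 of 17 alternatives, among them quantile normalization, size factors and leaving out Untreated replicate 1 or 3 or D28 replicate 2, and 6 genes did not pass. PARP1, which acts in DNA repair, stood at 107 and 92.8 TPM. Of 6 APOBEC3 cytidine deaminases tested 4 were called. APOBEC3G, which restricts retroviruses, was at 24.3, 28.2 and 18.4 TPM in Untreated and 101, 92.3 and 108 TPM at D28, and APOBEC3H was listed at 0 in every Untreated library and at 5.81, 3.95 and 4.66 TPM at D28. APOBEC3B and APOBEC3C stood at -0.15 and 0.038 and did not pass. The family shares much sequence, which leaves the division of reads uncertain. Of 10 TRIM genes tested 9 passed upward and TRIM21, TRIM56 and TRIM69 were called, TRIM56 not with quantile normalization or size factors, and SP140 was the only one of 7 nuclear body genes called (5 higher and 1 lower by the adjusted p), from 8.67 to 32.9 TPM.

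Among 28 genes of cholesterol and fatty acid synthesis none was called (limma, 15 at an unadjusted p under 0.05), and 6 were higher and 2 lower by the adjusted p, against 18.3% and 6.95% of all genes, or 2 and 3 with quantile normalization and 1 and 6 with size factors. Among those that passed were SREBF1, the sterol-responsive factor, at 0.73 and PMVK at -0.68. Of 25 p53 targets only BBC3 (PUMA) was called, against 7.16% of all genes. BBC3 went from 14.4 to 30.4 TPM and was not called with quantile normalization, size factors or without Untreated replicate 3. By the adjusted p 9 passed upward, against 18.3% of all genes, or 4 with quantile normalization and 4 with size factors. The median of the list was 0.19, equal to that of all genes. Of 60 replication-dependent histone genes tested 10 were called higher, against 7.16% of all genes. By the adjusted p 14 were higher and 0 lower, against 18.3% and 6.95%, or 8 and 1 with quantile normalization. By sign 44 were higher and 16 lower, at a median of 0.499, which was 0.043 with quantile normalization. The largest rises outside protein-coding genes, chosen after their values were seen, include the pseudogenes LGALS17A, listed at 0 in Untreated and at 60.5 ± 6.59 TPM at D28, and GBP1P1, at 0.122 ± 0.211 and 30.3 ± 6.03 TPM. GBP1, which GBP1P1 resembles, was called higher as well (2.78), and how reads were divided between them is not given in the sources used here.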
